A study of Mus musculus with 6 samples.

Results

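The genes described are the main scaffold proteins of the postsynaptic density (Dlg4, Shank1, Shank2, Shank3, Homer1, Homer2 and Homer3) and the α and β subunits of the calcium/calmodulin-dependent protein kinase CaMKII (Camk2a and Camk2b). They were chosen by name, as the rows whose Ensembl identifier maps to one of these symbols, and all 9 were found among the 21006 genes measured. The tissue was prefrontal cortex from wild type male C57BL/6 mice aged 18 months per the age label (a code in the sample titles, which the labels do not explain, carries another number), and the measurement was mRNA. The PND group (postoperative neurocognitive disorder, n = 3 mice) was anesthetized with 1.5% isoflurane for 30 min and then underwent exploratory laparotomy, the opening and inspection of the abdomen, which lasted 30 min under the same anesthetic and was followed by lidocaine cream and povidone iodine on the wound. The CON group (n = 3 mice) had neither the anesthesia nor the operation. Per the methods of the study, mice of both groups were trained with tone and foot shock the day before the operation. Afterwards they were tested in an open field and for fear memory. The Barnes maze, a test of spatial memory, followed over several days and ended shortly before the tissue was taken. All were then deeply anesthetized with isoflurane and perfused with saline. The comparison of PND with CON asks whether anesthesia and operation changed the mRNA of this postsynaptic machinery. It does so days after the operation, in mice that had all gone through these tests.

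The postsynaptic density is the protein lattice under the membrane of an excitatory synapse, most often on a dendritic spine. PSD-95, the product of Dlg4, lies close to the membrane and holds glutamate receptors in place through its PDZ domains. SHANK proteins form a deeper layer that is linked to PSD-95 through the DLGAP proteins, and HOMER proteins tie SHANK to the group I metabotropic glutamate receptors and to calcium stores. CaMKII is the most abundant kinase of the density. Calcium entering through NMDA receptors activates it through calmodulin, and its ability to keep itself active by autophosphorylation is a textbook mechanism of long-term potentiation and spatial memory.

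No difference between PND and CON was detected for any of the 9 genes. Values are given as FPKM, the fragments of a gene per kilobase of exon scaled by depth, so that levels can be compared between genes. The test was limma on log2(FPKM + 0.1) for 18185 genes that averaged 0.1 FPKM or more, all 9 genes among them. Fold changes are differences on that log2 scale, given with their standard error (SE). Past the cut-off of the study, an absolute log2 fold change above 1 with an unadjusted p below 0.05, were 0 of the 9 genes, against 1.33% of all genes tested (0 higher against 0.841%, and 0 lower against 0.484%). An unadjusted p below 0.05 was likewise given to 0 of the 9 genes, against 3.13% of all genes, and the smallest p among them was 0.203, for Homer1. After Benjamini-Hochberg adjustment over all genes the limma test gave adjusted p = 0.9999 for each of the 9, and 0 of them had an adjusted p below 0.05, against 0.011% of all genes. There were 6 genes with a higher fitted level in PND and 3 with a lower one, and the median log2 fold change of the 9 was 0.08, beside 0.01 for all genes tested. Groups that did not overlap were seen in 0 of the 9 genes, against 7.66% of all genes. In 6 of the 9 genes the 3 PND samples lay inside the range of the CON samples, which held for 32.6% of all genes.

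The intervals were wide, so that a missing call is not evidence that the levels were alike. The 95% confidence interval of the log2 fold change lay within the bounds of the cut-off, from -1 to 1, for 5 genes (Dlg4, Homer1, Homer2, Camk2a and Camk2b). For the other 4 (Shank1, Shank2, Shank3 and Homer3) it reached past at least one bound. In bulk tissue, fewer cells of a type and less RNA per cell cannot be told apart, and the p-values measure the spread between these 6 animals.

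**Figure D1:**
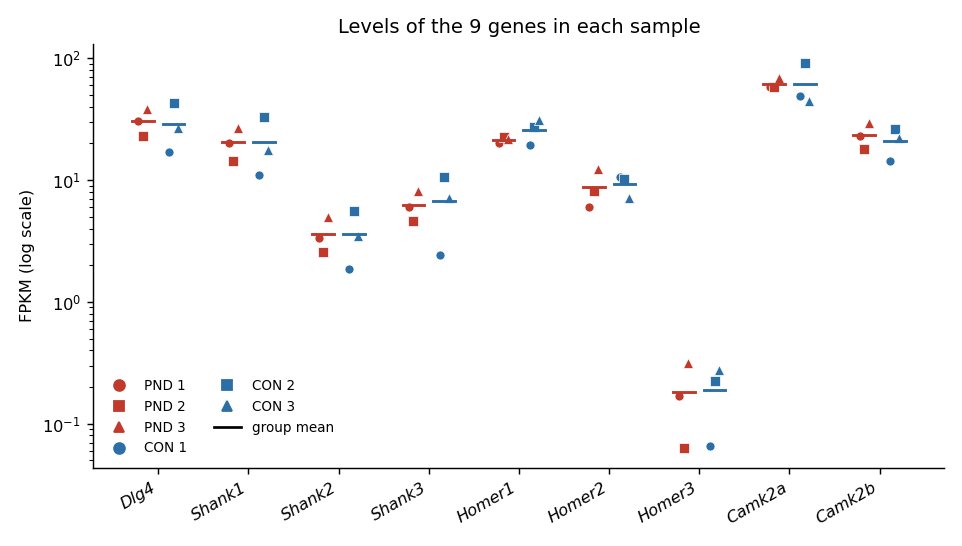
FPKM of the 9 genes in each of the 6 samples on a log scale, with PND in red and CON in blue, marker shapes for the replicate numbers and a line for the mean of each group. The groups overlap for every gene, Camk2a has the highest mean (61.7 FPKM over the 6 samples) and Homer3 the lowest (0.185 FPKM), and the square of CON replicate 2 lies highest in 5 genes.

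Dlg4 (ENSMUSG00000020886; GRCm38 chromosome 11, 70016942 to 70047522, plus strand) encodes PSD-95, the membrane-associated guanylate kinase that defines the excitatory postsynaptic density. It was measured at 30.7, 23.0 and 38.7 FPKM in PND replicates 1 to 3 and at 17.1, 42.9 and 27.0 FPKM in CON replicates 1 to 3. The CON samples thus held both the lowest and the highest value, and the PND samples lay between them. The means were 30.8 ± 7.83 (PND) and 29.0 ± 13.0 (CON) FPKM (SD, n = 3 each, as throughout). The log2 fold change was 0.15 (SE 0.34, interval -0.63 to 0.94).

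The Shank genes encode the scaffolds that join the receptor complexes to the actin cytoskeleton, and SHANK3 is widely known as the protein lost in Phelan-McDermid syndrome. Shank1 (ENSMUSG00000038738; chromosome 7, 44310253 to 44360572, plus strand) was measured at 20.02, 14.4 and 27.0 FPKM in PND and at 11.0, 33.0 and 17.5 FPKM in CON. Shank2 (ENSMUSG00000037541; chromosome 7, 144001928 to 144424494, plus strand) was lower, at 3.33, 2.58 and 4.94 FPKM in PND and 1.85, 5.53 and 3.46 FPKM in CON. Shank3 (ENSMUSG00000022623; chromosome 15, 89499623 to 89560261, plus strand) was measured at 6.05, 4.58 and 8.08 FPKM in PND and at 2.43, 10.7 and 7.10 FPKM in CON. All 3 genes had the same order of samples at the ends: CON replicate 2 was highest and CON replicate 1 lowest, with PND replicate 3 second and PND replicate 2 second from the bottom.

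The means of the Shank genes were close in the groups. They were 20.4 ± 6.31 FPKM in PND and 20.5 ± 11.3 FPKM in CON for Shank1, with a log2 fold change of 0.09 (SE 0.40, interval -0.84 to 1.03). For Shank2 they were 3.62 ± 1.21 and 3.62 ± 1.85 FPKM, with a log2 fold change of 0.08 (SE 0.41, interval -0.87 to 1.03). Shank3 had means of 6.24 ± 1.76 and 6.74 ± 4.14 FPKM and a log2 fold change of 0.09 (SE 0.51, interval -1.10 to 1.27). The sign of such a small difference depended on the scale: the ratio of the mean FPKM, PND over CON, was 0.996 for Shank1 and 0.926 for Shank3, below 1, while the log2 fold changes of both were above 0. Shank3 differed most between single mice of the 8 genes above 1 FPKM, with a ratio of 4.40 between the highest and the lowest sample.

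Promoter sequences were taken from RefSeq (GRCm38.p6), each 250 bases before to 50 after an annotated start, and 6 of the 9 genes matched 10 such sequences. The promoter of Shank3, on the plus strand at chr15:89499358-89499657, is shown as that of the gene with this widest spread. Capitals mark GC boxes, the binding motif of SP-family factors (GGGCGG, or CCGCCC on the other strand), with overlapping matches counted singly. It holds 4 of them, and 81.0% of its bases are G or C. Of all 32851 promoters of the table, 35.7% hold at least one GC box.

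Shank3: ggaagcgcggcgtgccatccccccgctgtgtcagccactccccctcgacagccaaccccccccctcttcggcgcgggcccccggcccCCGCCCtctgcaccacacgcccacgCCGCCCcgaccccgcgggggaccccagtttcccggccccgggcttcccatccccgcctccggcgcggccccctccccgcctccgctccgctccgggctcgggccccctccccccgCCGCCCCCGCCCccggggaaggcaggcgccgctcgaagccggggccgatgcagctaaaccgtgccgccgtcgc

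In the deposited values, and by the median correlation over samples, Homer1 and Homer2 followed the Dlg4, Shank and CaMKII genes less closely than Homer3 did, which no longer held after the correction for GC content described below. HOMER proteins are adaptors with an EVH1 domain that binds SHANK and group I metabotropic glutamate receptors, and the long forms assemble through a coiled coil. Homer1 also gives a short form, Homer1a, which is induced by neuronal activity, lacks the coiled coil and loosens the lattice. The values are per gene, so short and long transcripts of Homer1 were not separated here.

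Homer1 (ENSMUSG00000007617; chromosome 13, 93299635 to 93405129, plus strand) was measured at 20.1, 22.7 and 21.6 FPKM in PND and at 19.6, 27.1 and 31.0 FPKM in CON. The PND samples were close to each other, and CON replicates 2 and 3 lay above all of them while CON replicate 1 lay below. The means were 21.5 ± 1.33 FPKM and 25.9 ± 5.80 FPKM. Homer1 had the largest absolute log2 fold change of the 9 genes, -0.25 (SE 0.18, interval -0.66 to 0.17). Without CON replicate 1, the log2 fold change was -0.43 and the unadjusted p fell below 0.05, with adjusted p = 0.899 in limma. Without any other single sample it stayed above 0.05.

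Homer2 (ENSMUSG00000025813; chromosome 7, 81600481 to 81707527, minus strand) was measured at 5.96, 8.12 and 12.3 FPKM in PND and at 10.7, 10.3 and 7.12 FPKM in CON. Both extremes lay in PND, and CON replicate 1 was above the other CON samples, unlike for the scaffold genes above. The means were 8.78 ± 3.20 and 9.35 ± 1.94 FPKM, with a log2 fold change of -0.13 (SE 0.28, interval -0.79 to 0.53). Homer3 (ENSMUSG00000003573; chromosome 8, 70282827 to 70294361, plus strand) was barely measured, at 0.168, 0.0627 and 0.317 FPKM in PND and 0.0661, 0.223 and 0.276 FPKM in CON. These values correspond to an estimated 1.70 to 10.2 fragments per sample, and PND replicate 2 and CON replicate 1 were under the floor of 3 fragments. The log2 fold change of Homer3 was -0.05 (SE 0.53, interval -1.28 to 1.18). Its interval reached past the cut-off in both directions, and the part of depth in this width was not tested.

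One promoter of each Homer gene is shown, because the 3 genes of the family differ in level and in their pattern over the samples. Capitals mark GC boxes as above and, in Homer1, the letters TGACGT, the core of the cAMP response element bound by CREB, searched as TGACGT or ACGTCA. The Homer1 promoter lies at chr13:93303507-93303806 on the plus strand, that of Homer2 at chr7:81706876-81707175 on the minus strand and that of Homer3 at chr8:70282749-70283048 on the plus strand.

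Homer1: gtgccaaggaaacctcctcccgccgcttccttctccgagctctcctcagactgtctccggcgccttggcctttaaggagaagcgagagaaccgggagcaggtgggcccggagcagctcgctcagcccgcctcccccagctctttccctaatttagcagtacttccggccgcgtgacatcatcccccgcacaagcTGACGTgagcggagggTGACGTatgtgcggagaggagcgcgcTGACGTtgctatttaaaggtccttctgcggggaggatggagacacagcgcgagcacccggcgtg

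Homer2: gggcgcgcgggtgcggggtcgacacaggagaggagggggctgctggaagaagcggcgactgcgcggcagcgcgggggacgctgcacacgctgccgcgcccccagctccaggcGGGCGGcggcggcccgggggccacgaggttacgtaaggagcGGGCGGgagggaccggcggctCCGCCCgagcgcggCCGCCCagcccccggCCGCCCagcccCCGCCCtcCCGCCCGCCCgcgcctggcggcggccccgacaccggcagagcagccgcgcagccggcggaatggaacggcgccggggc

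Homer3: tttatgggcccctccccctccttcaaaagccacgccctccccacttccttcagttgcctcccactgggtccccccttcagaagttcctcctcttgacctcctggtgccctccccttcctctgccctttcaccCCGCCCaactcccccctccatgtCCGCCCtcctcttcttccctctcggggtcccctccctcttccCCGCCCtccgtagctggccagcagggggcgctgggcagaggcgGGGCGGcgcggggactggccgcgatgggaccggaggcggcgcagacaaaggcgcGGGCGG

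The Homer1 sequence holds the TGACGT motif 3 times and no GC box. At least 1 match of TGACGT is found in 7.51% of all 32851 promoters, and at least 3, a count set by the Homer1 sequence itself, in 66 of them (0.201%). The Homer2 sequence holds 8 GC boxes and the Homer3 sequence 5, and neither holds TGACGT. A second annotated promoter of Homer1, at chr13:93307784-93308083, and one of Homer2, at chr7:81692916-81693215, hold 0 matches of either motif. A search for the TATA box (TATAAA) gave 0 matches in the promoters shown and 1 in this second window of Homer2. All these matches describe the letters of the windows and no binding was measured. The part of the motifs in the levels or patterns of the genes was not tested.

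Camk2a and Camk2b encode the kinase subunits of the forebrain, which assemble into mixed holoenzymes. CaMKIIα is typical of excitatory neurons, and CaMKIIβ also binds F-actin in spines. Camk2a (ENSMUSG00000024617; chromosome 18, 60925618 to 60988152, plus strand) had the highest level of the 9 genes, with 58.6, 58.6 and 68.7 FPKM in PND and 49.2, 91.0 and 44.2 FPKM in CON. CON replicate 2 stood above all other samples and the other CON samples lay below all PND samples. The means were 62.0 ± 5.82 and 61.5 ± 25.7 FPKM, with a log2 fold change of 0.08 (SE 0.26, interval -0.52 to 0.69). Without CON replicate 2, the log2 fold change of Camk2a was 0.40 and the unadjusted p fell below 0.05, with adjusted p = 0.831 in limma, so that this library decided whether the unadjusted threshold was reached.

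Camk2b (ENSMUSG00000057897; chromosome 11, 5969644 to 6066362, minus strand) was measured at 23.2, 17.9 and 29.4 FPKM in PND and at 14.2, 26.5 and 22.3 FPKM in CON. The groups overlapped, with the highest value in PND replicate 3 and the lowest in CON replicate 1. The means were 23.5 ± 5.75 and 21 ± 6.24 FPKM, with a log2 fold change of 0.18 (SE 0.26, interval -0.44 to 0.80). The ratio of α to β FPKM, computed within each mouse, was 2.53, 3.27 and 2.34 in PND and 3.46, 3.44 and 1.98 in CON. Its means were 2.71 ± 0.493 and 2.96 ± 0.846, and the groups overlapped. The difference of these means, -0.24, rested on single CON samples. It was 0.0049 without CON replicate 1, -0.0062 without CON replicate 2 and -0.73 without CON replicate 3.

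**Figure D2:**
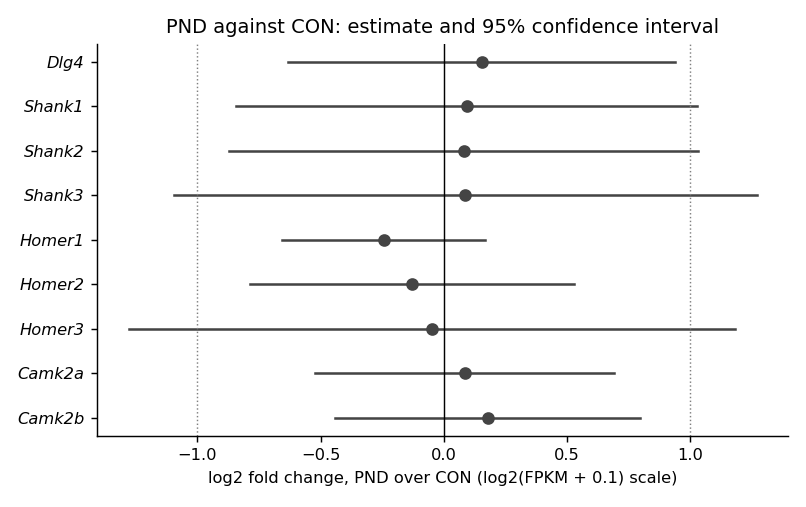
Fitted log2 fold change of each gene, PND over CON, on the log2(FPKM + 0.1) scale, with points for the estimate, bars for its 95% confidence interval and dotted lines at the cut-off of -1 and 1. Every interval includes 0, and the bars are shortest for Homer1 (-0.66 to 0.17) and longest for Homer3 (-1.28 to 1.18).

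The order of levels by the mean of the 6 samples ran Camk2a (61.7 FPKM), Dlg4 (29.9), Homer1 (23.7), Camk2b (22.2), Shank1 (20.5), Homer2 (9.07), Shank3 (6.49), Shank2 (3.62) and Homer3 (0.185). Camk2a was above Dlg4 in 6 of 6 mice, and the steps from Shank1 to Homer2, from Shank3 to Shank2 and from Shank2 to Homer3 also held in 6 of 6. The middle of the order was not separated. Dlg4 was above Homer1 in 4 of 6 mice, Homer1 above Camk2b in 4 of 6 and Camk2b above Shank1 in 5 of 6. Homer2 was above Shank3 in 4 of 6 mice.

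Within families the mix of genes was close in the groups. For this, the families were completed with Dlg1, Dlg2 and Dlg3 and with Camk2d and Camk2g, whatever their values. Dlg4 made up 25.9% ± 4.23 of the summed Dlg FPKM in PND and 24.4% ± 8.07 in CON, where Dlg2, which encodes PSD-93, made up the most (49.5% ± 3.94 and 49.8% ± 7.25). Shank1 made up 67.4% ± 0.690 of the Shank sum in PND and 67.1% ± 4.81 in CON, Shank3 20.7% ± 0.556 and 21% ± 4.74, and Shank2 11.9% ± 0.530 and 11.9% ± 0.575. The Shank sum itself ran from 15.3 FPKM in CON replicate 1 to 49.3 FPKM in CON replicate 2. The share of Shank1 ran from 66.7% to 68.1% in PND and from 62.4% to 72.0% in CON, and that of Shank3 from 20.2% to 21.3% and from 15.9% to 25.3%. Homer1 made up 71.1% ± 7.03 of the Homer sum in PND and 72.5% ± 8.06 in CON. Camk2a made up 50.0% ± 2.16 of the summed CaMKII FPKM in PND and 47.8% ± 5.83 in CON, and Camk2b 18.8% ± 2.93 and 16.9% ± 3.70. Camk2g, the γ subunit, lay at 28.1% ± 3.16 and 32.2% ± 2.42, and the groups overlapped for every share.

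**Figure D3:**
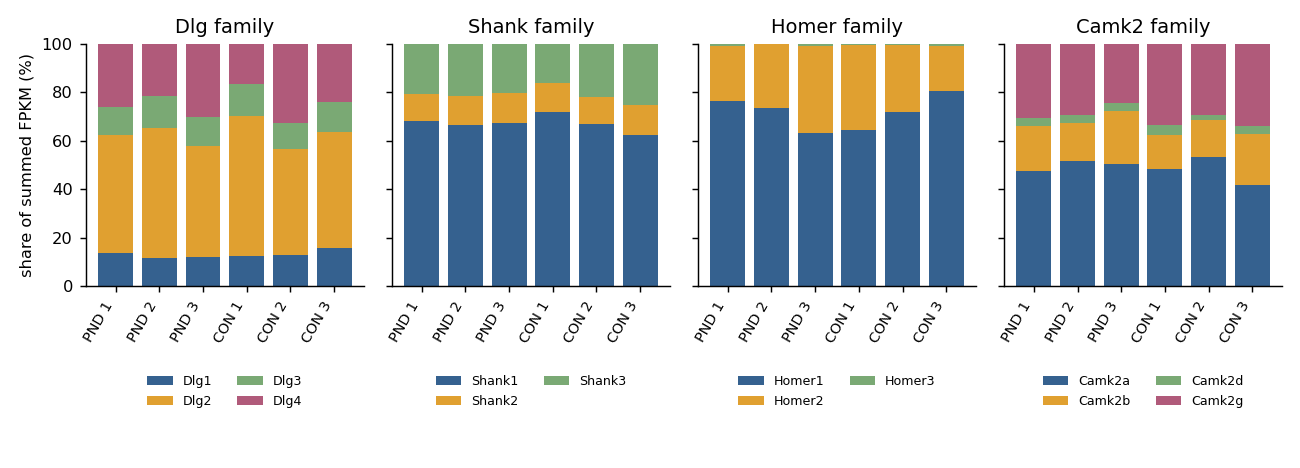
Share of each gene in the summed FPKM of its family (percent, stacked to 100) in each of the 6 samples, for the Dlg, Shank, Homer and CaMKII families. Shank1 holds between 62.4% and 72.0% of its family in every sample, and the share of Dlg4 runs from 16.6% in CON replicate 1 to 32.7% in CON replicate 2.

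The spread between mice of one group was larger for these genes than for the typical gene. The median SD within groups was 0.54 on the log2 scale for the 9 genes, beside 0.32 for all genes tested and 0.25 for the 12387 genes that averaged 1 FPKM or more. It was 0.27 for the 56 pathway genes described below, and 0.56 for the adhesion and AMPA receptor auxiliary genes among them. The deviations lined up by library. Expressed as the median log2 deviation of the 9 genes from their own means, CON replicate 2 stood at 0.59 and PND replicate 3 at 0.45, whereas CON replicate 1 stood at -0.69 and PND replicate 2 at -0.31. PND replicate 1 (0.0032) and CON replicate 3 (0.03) lay near the middle. All 9 genes were above their mean in CON replicate 2, and 0 of 9 in PND replicate 2. Both the highest and the lowest of these libraries belonged to the CON group. CON replicate 2 was highest and CON replicate 1 lowest of the 6 in 4 of the 9 genes (Dlg4, Shank1, Shank2 and Shank3), against 11.5% of all genes tested. Taken singly, CON replicate 2 was highest in 5 genes, against 25.4% of all genes, and CON replicate 1 was lowest in 6, against 25.6%. Among the 56 pathway genes, CON replicate 2 was highest in 26 and CON replicate 1 lowest in 29, and both held in 16.

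The same 4 outer libraries, in the same order, stood apart for genes whose transcripts are rich in G and C. In the tenth of genes with the highest GC content (1233 genes, median 58.5% in the longest transcript), the median log2 deviations were 0.49 in CON replicate 2, 0.37 in PND replicate 3, -0.56 in CON replicate 1 and -0.30 in PND replicate 2, while the middle libraries, PND replicate 1 (0.11) and CON replicate 3 (-0.03), lay in the opposite order to that of the 9 genes. Among the postsynaptic genes, GC content of the longest transcript was 62.4% for Shank3, 61.4% for Shank1, 60.2% for Homer3, 55.0% for Shank2, 53.9% for Camk2b and 53.3% for Camk2a, and it was lower for Dlg4 (46.8%), Homer2 (44.4%) and Homer1 (36.9%). Homer1 and Homer2, at the low end, had the smallest differences between CON replicates 2 and 1 on the log2 scale, 0.47 and -0.05, and Shank3, at the high end, had the largest, 2.09. Dlg4 departed from this order with a difference of 1.32, and the median over its annotated transcripts was 56.1% GC. Homer3 departed from it in the other direction, with a difference of 0.96 and a median of 58.8% GC. By the median over transcripts, Homer2 was at 54.0% GC, near Camk2a (55.1%, difference 0.89), and would depart from the order as well. Over the 9 genes and the 56 pathway genes described below, the Spearman correlation of GC content with this difference was 0.66, as a description across 65 genes that come from the same libraries. Over 12323 genes at that level or above it was 0.63.

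**Figure D4:**
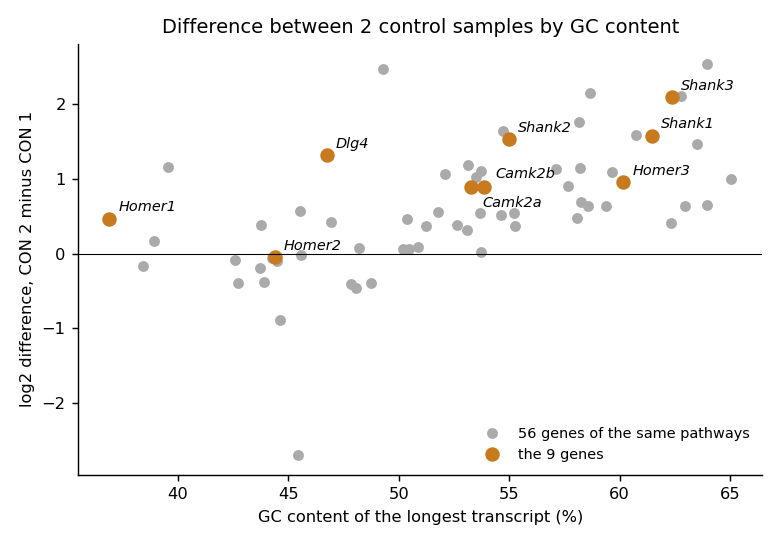
GC content of the longest transcript (percent, x axis) against the log2 difference between CON replicate 2 and CON replicate 1 (y axis), for the 9 genes in orange and 56 genes of the same pathways in grey. The difference is larger at higher GC content, from 0.47 for Homer1 at 36.9% to 2.09 for Shank3 at 62.4%.

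The values were therefore also corrected by subtracting from each sample a smooth curve of its deviations along GC content. The median SD within groups then fell from 0.54 to 0.36 for the 9 genes and from 0.25 to 0.20 for genes of at least 1 FPKM, and it was smaller for 6 of the 9 genes. It went from 0.64 to 0.16 for Shank1, from 0.82 to 0.36 for Shank3 and from 0.41 to 0.20 for Camk2b. It did not narrow for Dlg4 (0.54 to 0.55), Homer1 (0.25 to 0.35) and Homer2 (0.43 to 0.45). With the median GC content of the annotated transcripts in place of that of the longest one, an alternative chosen after seeing the data, the log2 fold change of Dlg4 was 0.08 with an SE of 0.16 (interval -0.29 to 0.46), against 0.15 with an SE of 0.34 uncorrected. After correction 0 of the 9 genes had an unadjusted p below 0.05 in limma. The log2 fold changes of Shank1 and Shank3 were then -0.0082 (interval -0.30 to 0.29) and -0.014 (interval -0.58 to 0.55), with the sign reversed and the intervals narrower. Whether GC content is the source of the library order was not tested.

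**Figure D5:**
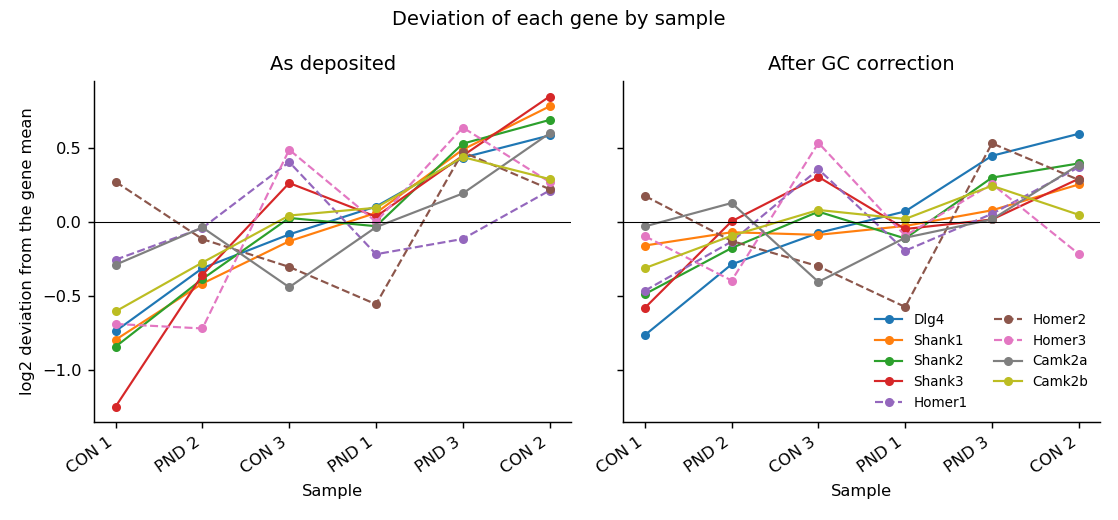
Deviation of each gene from its own mean over the 6 samples (log2 scale), as deposited (left) and after the GC correction (right), with 1 line per gene and the samples placed by the median deviation of the 6 genes other than Homer. On the left the solid lines (Dlg4, Shank and CaMKII genes) end in CON replicate 1 and CON replicate 2, except that Camk2a is lowest in CON replicate 3 and Camk2b highest in PND replicate 3; among the dashed lines on that side, Homer1 and Homer2 follow less closely than Homer3, and the correction narrows 6 of the 9 genes.

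Across the 6 samples most of the scaffold and kinase genes varied together, as a description over samples that share the library order above. Among Dlg4, the Shank genes and the CaMKII genes, the 15 pairs had Pearson correlations of log2 values from 0.60 to 0.99 with a median of 0.94, and the highest was that of Dlg4 with Shank1. After the GC correction the range was -0.06 to 0.96 and the median 0.74. Homer1 correlated with these 6 genes at 0.02 to 0.59 (median 0.35) as deposited and at 0.04 to 0.94 (median 0.72) after correction, and Homer2 at 0.0019 to 0.42 (median 0.18) and -0.11 to 0.52 (median 0.33). Homer3, under the floor of 3 fragments in 2 samples, correlated with them at 0.27 to 0.89 (median 0.81) as deposited and at -0.75 to 0.51 (median 0.22) after correction. Camk2a and Camk2b, subunits of the same holoenzyme, correlated at 0.60 as deposited and at -0.06 after correction.

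The genes outside the list that followed a member most closely over the 6 samples were sought among those that averaged 1 FPKM or more. For Dlg4 they were Camta2, Mtch1 and Apbb1 (r of 0.998, 0.997 and 0.997), and 692 of 12315 genes had r above 0.95 with it. For Shank1 they were Dagla, Kif1a and Phf1, all with r of 0.997 or above, and 654 genes passed 0.95. For Camk2a they were BX649560.1, 2900026A02Rik and Cpne9 (0.999, 0.997 and 0.996), with 41 genes past 0.95, and for Homer1 they included Gpat3 and Abcc1 (0.989 and 0.986), with 19 genes. Dlg4 and Shank1 thus shared their pattern with many genes, and Homer1 and Camk2a with few.

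The partners of these proteins were read from 5 lists of 56 genes in all, every one of them tested. An unadjusted p below 0.05 was given to 1 of the 56 genes, against 3.13% of all genes, and past the cut-off were 0 of 56, against 1.33%. The median log2 fold change was -0.01, with 27 genes higher and 29 lower. In the calmodulin and CaM kinase list, 1 of 15 genes was higher in PND at an unadjusted p below 0.05 and 0 were lower. It was Camk1g, which encodes CaM kinase Iγ, with 7.12, 4.98 and 8.45 FPKM in PND and 3.84, 5.65 and 3.91 FPKM in CON. Its groups overlapped, and the log2 fold change was 0.59 (SE 0.24, interval 0.03 to 1.16), with adjusted p = 0.9999 in limma. The median of the list was 0.02. Camk1, which was picked for its values, was the 1 gene of the 56 whose groups did not overlap (7.66% of all genes), with 8.10, 8.84 and 8.15 FPKM in PND and 5.45, 7.54 and 7.58 FPKM in CON.

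In the other 4 lists 0 genes had an unadjusted p below 0.05 in limma, and examples are taken from the 2 genes with the smallest p of each. Among the 17 scaffold partners (median log2 fold change -0.04), Dlgap1, the link from PSD-95 to SHANK, was at 17.4 ± 0.755 FPKM in PND and 18.8 ± 1.45 FPKM in CON (log2 fold change -0.10, SE 0.11). Its values overlapped between the groups, and no direction was shared by the list, in which 8 genes were higher and 9 lower.

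Among the 8 spine actin genes (median -0.03), Wasf1, a WAVE-complex activator of actin branching, had a log2 fold change of 0.06 (SE 0.09) and Synpo, synaptopodin of the spine apparatus, one of -0.27 (SE 0.47). Among the 11 adhesion and AMPA receptor auxiliary (TARP) genes (median -0.01), Lrrtm2, a leucine-rich repeat adhesion protein, had -0.16 (SE 0.11) and Nlgn3, a neuroligin, 0.77 (SE 0.61). Among the 5 scaffold genes of inhibitory synapses (median 0.07), Insyn2a had 0.30 (SE 0.19).

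The tissue label was checked against marker genes. The 8 excitatory neuron markers, among them Slc17a7 and Tbr1, were present in all samples, with sums of 158 to 194 FPKM in PND and 158 to 245 FPKM in CON, and CON replicate 2 was highest here too. Of them 0 were higher and 1 lower in PND at an unadjusted p below 0.05 in limma (3.13% of all genes), and 0 had an adjusted p below 0.05. Slc17a7, the vesicular glutamate transporter of cortical excitatory neurons, followed the library order of the scaffolds, at 41.7, 27.7 and 58.1 FPKM in PND and 23.6, 73.8 and 36.9 FPKM in CON. The 8 striatal neuron markers had sums of 211 to 263 FPKM in PND and 136 to 347 FPKM in CON, lowest in CON replicate 2 and highest in CON replicate 3. All 8 were fitted higher in PND, 0 of them with a p below 0.05. The part of these markers in the values of the scaffold and kinase genes was not tested.

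Sums for the other cell types overlapped between the groups, except that of the choroid plexus markers, which was low in both. The 7 pan-neuronal markers summed to 807 to 905 FPKM in PND and 845 to 936 FPKM in CON, the 6 inhibitory neuron markers to 195 to 216 and 183 to 211, the 6 oligodendrocyte markers to 220 to 277 and 250 to 273, and the 6 endothelial markers to 25 to 30.8 and 22.4 to 25.9, all with 0 markers at p below 0.05. The 6 astrocyte markers summed to 149 to 173 and 145 to 156 FPKM, with Gfap and Gjb6 higher and Aqp4 lower in PND at an unadjusted p below 0.05. The 6 microglia markers summed to 18.1 to 25.9 and 20.2 to 30.3 FPKM, with P2ry12 lower. The list did not share that direction, with 4 of the 6 fitted higher in PND (median log2 fold change 0.10). The 6 choroid plexus markers, 2 of them tested, summed to 2.31 to 2.86 and 1.15 to 2.08 FPKM, with Clic6 higher. Ttr, Folr1, Aqp1 and Otx2 were listed at 0 in at least 1 sample. Each marker named here as higher or lower had adjusted p = 0.9999 in limma, and 3.13% of all genes had an unadjusted p below 0.05.

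The depth was not given. An effective depth, which includes any scaling of the libraries by the authors, was estimated from the steps of low values. It lay between 7.19 M and 9.39 M fragments per sample. Apart from Homer3, the 9 genes had an estimated 149 to 5537 fragments in a sample. Exons of Shank1, Shank3, Homer2 and Homer3 overlap those of a gene on the opposite strand (1700008O03Rik by 339 bases, Gm15609 by 271, Gm44570 by 525 and Ddx49 by 874). The use of strand in counting is not stated, so fragments of the overlaps cannot be assigned, and the value of Homer3 is the least certain.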

How the data were processed

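mRNA was measured in the prefrontal cortex of 6 mice, 3 per group, and the group of each sample came from its treatment label. Per the methods of the study, the authors depleted total RNA of ribosomal RNA, sequenced it by Illumina, cleaned the reads with Seqtk and mapped them by HISAT2. The deposited values were FPKM, without any counts. The authors computed them from fragments per gene after TMM normalization (trimmed mean of M values), which scales the libraries. The build and the use of strand are not given in the sources used here (the submitters' processing notes list mm8, mm9 and Bowtie 0.12.2 with no role). Symbols came from a gene name table (20866 of 21006 identifiers matched), and coordinates, GC content of the longest transcript and exon length from GENCODE M21 on GRCm38.

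PND and CON were compared by limma 3.58.1 (R 4.3.3) with an intensity trend, two-sided, on log2(FPKM + 0.1), for genes that averaged 0.1 FPKM or more. Fold changes on this scale understate those of low genes. The fit was first tested on simulated data with known, large changes. The simulation held no library or GC effect, so it does not show how well small changes in these genes would be detected. The GC correction subtracted, per sample, a lowess curve (span 0.3) of deviations along GC content. The number of fragments was estimated from the steps of FPKM times exon length at low values, is approximate and was used for precision only.

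The 9 genes and all lists were chosen with earlier results of these data known. Named were these 9 genes, from each pathway list the genes with p below 0.05 or else the 2 with the smallest p, and for Dlg4, Shank1, Homer1 and Camk2a the 3 genes most correlated. Markers named were those with p below 0.05, at 0 or defining for the cortex. Family members were added to complete the shares and overlapping genes for their position. Camk1 and the values of single libraries in the closing section were picked after they were seen. Some genes that these rules select are not reported here.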

Additional observations from a re-analysis of the deposited data

How the results depend on the processing

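Genes past the cut-off numbered 241 (153 higher and 88 lower in PND), 25 with a pseudocount of 1 and 59 with a mean of at least 1 FPKM, where Homer3 was not tested, and 235 to 388 when 1 sample was left out (388 without CON replicate 2). Quantile normalization moved the split to 124 higher and 116 lower, and leaving out 1 sample moved it between 107 higher and 128 lower (without PND replicate 3) and 286 higher and 102 lower (without CON replicate 2). The 9 genes had 0 past the cut-off under every alternative run. With p below 0.05 were 0 of them, and 0 to 1 when 1 sample was left out (Homer1 without CON replicate 1, Camk2a without CON replicate 2). Shank1 turned from 0.09 to -0.0082 and Shank3 from 0.09 to -0.014 with the GC correction, with or without the replicate block, and to -0.0091 and -0.013 with the GC correction on the median GC content of transcripts, an alternative chosen after seeing the data. Without 1 sample, the log2 fold change ranged from -0.17 to 0.49 for Dlg4, -0.28 to 0.51 for Shank1, -0.32 to 0.45 for Shank2, -0.51 to 0.53 for Shank3, -0.43 to -0.10 for Homer1, -0.40 to 0.11 for Homer2, -0.41 to 0.30 for Homer3, -0.11 to 0.40 for Camk2a and -0.080 to 0.37 for Camk2b. The median of the 9 ranged from -0.28 without CON replicate 1 to 0.40 without CON replicate 2, beside 0.08, and was -0.0082 with the GC correction. Same-numbered samples did not deviate together (correlations -0.451 to 0.0274 over genes, and 0 of 3 PND samples were closest to the CON sample of their number). This check gave no sign of pairing by number. The deviations also carry the library order above, so the check cannot exclude a pairing hidden under that order. With the replicate block, 226 genes passed the cut-off, the median of the 9 genes was 0.08 and 0 of them had p below 0.05. Homer3 had an estimated 1.70 to 10.2 fragments per sample, and the part of depth in its results was not tested.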

Other observations

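Nlgn3, a pathway gene picked after its values were seen, had 1 CON library far from the rest. It was at 3.16 FPKM in CON replicate 1 and at 15.6 to 18.7 FPKM in the other 5 samples, and it did not pass the cut-off in limma.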
